A study of Mus musculus with 14 samples.

Results

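The hair bundle is the mechanosensitive organelle on top of each cochlear hair cell (HC), and 33 genes that build it or turn its deflection into a current are described here in sorted cochlear supporting cells (SCs). The genes were listed by name from their known roles, at a time when earlier results of these data were known. Every one of the 33 was found among the 35976 gene symbols of the count tables. Each had 10 or more counts in at least 3 of the 14 libraries, as did 17365 genes in all. The SCs came from Lfng-EGFP mice, which carry a bacterial artificial chromosome transgene that drives EGFP from Lfng, a gene of cochlear SCs, so the reporter and not a surface marker defined the sorted cells. All 14 libraries share that genotype. Cochleae dissected at P0 (collected at P0-P1) or at P6 were cultured for 24 h with 2 µM compound E (CompE), a γ-secretase inhibitor that blocks Notch receptor cleavage, or with an equal volume of the solvent DMSO, then dissociated with trypsin and sorted for EGFP. The 4 groups were P0 CompE (n = 4), P0 DMSO (n = 4), P6 CompE (n = 3) and P6 DMSO (n = 3). By the paper's methods each tube pooled 4 cochleae, while its figure legend for the RNA sequencing gives a different number of cochleae. Nothing states that replicates of one group came from separate litters, so the p-values measure the spread between these libraries.

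A hair bundle is a staircase of stereocilia, which are microvilli enlarged by a core of parallel, crosslinked actin filaments and set into the cell by a rootlet. Tip links made of cadherin 23 and protocadherin 15 join each stereocilium to its taller neighbour and pull on a channel complex that holds TMC1 or TMC2 with TMIE, LHFPL5 and CIB2. SCs carry no stereocilia. In the neonatal cochlea, Notch signaling from HCs keeps SCs from becoming HCs, and blocking it lets some SCs turn on Atoh1, the transcription factor that starts HC differentiation. The question for these genes was whether 24 h of Notch inhibition changed the transcripts of the bundle itself in the sorted SCs, and whether it did so alike at P0 and P6.

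The promoters of 4 genes on which the results turn, Tmc1 and Tmie between ages and Pls1 and Ush1c between treatments at P0, are given first, as the 250 bases before each RefSeq start on GRCm38.p6, read 5′ to 3′ on the gene's strand. All 4 genes lie on the minus strand. Tmc1 encodes the mature channel subunit (chr19:20954203-20954452, 41.2% GC), Tmie a membrane protein that the channel needs to work (chr9:110880074-110880323, 74.8% GC), Pls1 the actin crosslinker plastin 1 (chr9:95845280-95845529) and Ush1c the scaffold harmonin (chr7:46238491-46238740, 61.2% GC). Capitals mark a match to CAGCTG or CAGATG, or to the reverse complement of the latter, which are E-box forms that basic helix-loop-helix factors such as ATOH1 can bind.
Tmc1: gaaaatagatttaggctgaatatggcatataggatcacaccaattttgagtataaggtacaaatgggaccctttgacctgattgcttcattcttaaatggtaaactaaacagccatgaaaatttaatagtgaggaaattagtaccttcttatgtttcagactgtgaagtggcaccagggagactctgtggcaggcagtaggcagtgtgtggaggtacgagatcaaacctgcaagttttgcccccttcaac
Tmie: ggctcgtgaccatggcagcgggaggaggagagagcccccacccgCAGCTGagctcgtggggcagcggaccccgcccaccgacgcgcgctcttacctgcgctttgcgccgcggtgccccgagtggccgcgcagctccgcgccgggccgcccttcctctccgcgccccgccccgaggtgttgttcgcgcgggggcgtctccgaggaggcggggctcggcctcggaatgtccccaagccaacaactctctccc
Pls1: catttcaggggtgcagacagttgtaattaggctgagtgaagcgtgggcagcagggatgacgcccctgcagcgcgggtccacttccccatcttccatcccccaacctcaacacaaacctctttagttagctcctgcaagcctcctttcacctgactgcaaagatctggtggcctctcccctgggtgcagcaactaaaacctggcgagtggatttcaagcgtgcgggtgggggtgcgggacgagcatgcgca
Ush1c: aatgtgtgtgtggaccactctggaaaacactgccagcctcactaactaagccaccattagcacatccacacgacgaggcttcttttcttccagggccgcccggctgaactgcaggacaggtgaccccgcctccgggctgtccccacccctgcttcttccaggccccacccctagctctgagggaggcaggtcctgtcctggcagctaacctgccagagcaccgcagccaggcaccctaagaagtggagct
Only the Tmie window of these 4 held a match, a CAGCTG 206 bases before the start. Promoters were matched for 26 of the 33 genes and not for Loxhd1, Grxcr2, Elmod1, Ush1g, Eps8, Ptprq and Tmc2. Over the 33 start sites of those 26 genes, 8 windows (24.2%) held either motif, and 25.5% of 32851 promoters of the same length did.

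Each library held between 19415066 and 44430063 counts at P0 and between 23972228 and 41207627 at P6. Levels are given as RPM (reads scaled to a fixed library total of reads counted on genes) and, to compare genes with each other, as RPKM (RPM per kilobase of exon). The bundle genes were present in the sorted SCs of every group, over a wide range. In RPKM averaged over the 14 libraries, Pls1 stood highest at 137, followed by Cib2 at 78.9, Ush1c at 64.5, radixin (Rdx) at 61.8 and Myo6 at 47.5. The lowest in RPKM were Pcdh15 at 0.89 and Cdh23 at 0.62, the genes of the tip link itself. Exon length here joins all annotated exons of a gene, 23.8 kb for Pcdh15 and 16.9 kb for Cdh23. In mean RPM these genes stood at 21.2 and 10.6, and the lowest were Tmc2 at 3.54 and Ush1g at 3.72. The summed level of the 33 genes ran from 2517 to 3534 RPM in P0 DMSO, from 2869 to 3392 in P0 CompE, from 2060 to 2900 in P6 DMSO and from 2051 to 3246 in P6 CompE, and all 4 ranges overlapped.

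HC transcripts were also present in every group, and the libraries differed in them. The 16 HC markers that are not bundle genes summed to 544 to 1142 RPM in P0 DMSO, 857 to 2010 in P0 CompE, 575 to 1208 in P6 DMSO and 453 to 1147 in P6 CompE. That sum includes the HC fate genes Atoh1 and Hes6, with means of 194 and 261 RPM in P0 CompE and 53.2 and 61.5 RPM in P0 DMSO. The 13 SC markers summed to 8673 to 14089, 7834 to 8145, 7334 to 12139 and 5614 to 9003 RPM in the same order of groups. In such sorted pools, a different share of HCs or of other cells and a different RNA content per SC cannot be told apart. Lfng, whose reporter defined the sort, ran from 756 to 1139 RPM in P0 CompE and 1144 to 3677 in P0 DMSO. At P6 it ran from 482 to 1238 RPM with CompE and from 1209 to 2624 with DMSO. Whether the drug changed which cells passed the EGFP gate was not tested. P6 replicate 3 stood apart in both treatments. It held the highest level of its group for 27 of the 33 genes in CompE and 28 in DMSO, and for 26 in both, where any gene was highest there in 43.6% and 44.1% of cases. The 8 mesenchyme markers summed to 4083 RPM in its DMSO library and 3384 in its CompE library, the highest of their groups. The 8 macrophage and blood markers were also highest there, at 39.9 RPM in DMSO and 97.5 RPM in CompE, where the other P6 libraries had 4.11 to 14.3 RPM, and the 13 SC markers were lowest, at 7334 and 5614 RPM. At P0, CompE replicate 1 was highest for 22 of the 33 genes (47.1% of all genes were) and DMSO replicate 4 for 20 (18.3% of all genes), while DMSO replicate 2 was lowest for 24 (28.6% of all genes).

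**Figure D1:**
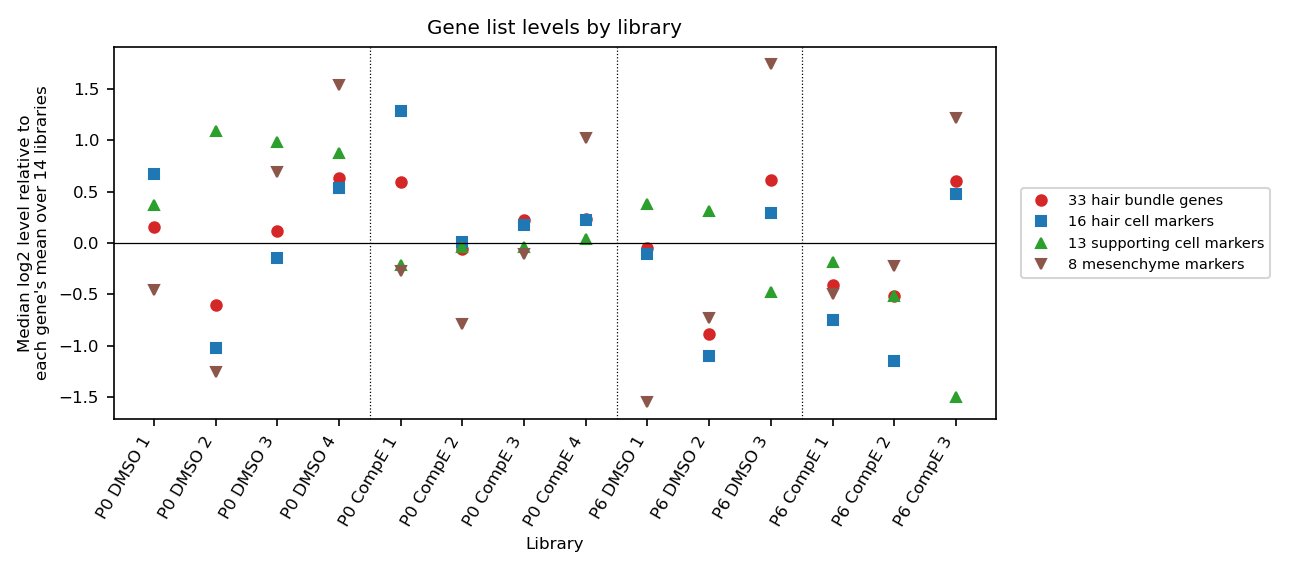
Median log2 level of 4 gene lists in each of the 14 libraries, relative to each gene's own mean over the libraries, with dotted lines between groups. The 33 bundle genes (circles) and the 16 HC markers (squares) were high together in P0 CompE 1, P0 DMSO 4, P6 DMSO 3 and P6 CompE 3. They were low together in P0 DMSO 2, P6 DMSO 2, P6 CompE 1 and P6 CompE 2.

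Across the 14 libraries, the log2 level of each bundle gene was set against the HC markers, from which Atoh1 and Hes6 were left out. The marker level of a library was the median of the markers' log2 levels, each relative to that marker's own mean. As a description over libraries that share batches and depth, Pearson's r exceeded 0.7 for 16 of the 33 genes. The share of all measured genes above 0.7 was not computed, so the count cannot be called particular to bundle genes. Nor were the HC markers alone in this pattern. The 7 glia and neuron markers were also high in P0 DMSO 4 (median 0.69), P6 DMSO 3 (1.07) and P6 CompE 3 (0.97). They were low in P0 DMSO 2 (-0.63), P6 DMSO 2 (-0.84) and P6 CompE 2 (-0.76). In P0 CompE 1 and P6 CompE 1 they stood at 0.13 and 0.17. Pearson's r was highest for Lhfpl5 (r = 0.95, rho = 0.92) and for the myosin gene Myo3a (r = 0.94, rho = 0.90). It was below 0.3 for 7: Tmc2, Strc, Rdx, Tmc1, Pls1, Ush1c and Eps8, with Eps8, an actin capping protein at stereocilia tips, at -0.38 and Ush1c at -0.22. Pls1, Ush1c and Tmc1, 3 of the 4 genes whose promoters are shown, were among those with r below 0.3. These values pool both ages, between which the level of Tmc1 differed, and correlations within an age were not computed. Within P6, Tmc1 was highest in replicate 3 of both treatments (89.9 RPM with CompE and 75.5 RPM with DMSO). The median of all 16 HC markers was highest there too (0.48 and 0.29).

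At P0, no bundle gene was called (0 of 33), a call being a change of 2-fold or more whose adjusted p does not exceed 0.01 (edgeR's quasi-likelihood test with Benjamini-Hochberg adjustment over 15937 genes); among all genes tested the share was 1.22%. At an unadjusted p under 0.05 there were 4, Pls1, Ush1c, Myo6 and Triobp, where 13.4% of all genes passed. With the replicate number as a block there were 6, where 19.2% of all genes passed. DESeq2 also called 0 of the 33, where it called 1.71% of all genes. The estimates for the 33 genes ran from -0.78 to 0.74 on the log2 scale, 16 above and 17 below 0, with a median of -0.03 beside 0.01 for all genes. That split depended on the fit and on single libraries: it was 20 above and 13 below 0 (median 0.11) with the replicate number as a block, 25 and 8 (median 0.29) without DMSO replicate 4, and 12 and 21 (median -0.14) without CompE replicate 1. For 19 of the 33 the 95% interval lay within a 2-fold change in either direction, and for the other genes a 2-fold change lay inside the interval.

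Among the actin core genes, Pls1 (chr9:95752642-95845311) came nearest to a call. Its levels were 452, 489, 433 and 450 RPM in the CompE replicates 1 to 4 and 619, 895, 662 and 851 RPM in the DMSO replicates 1 to 4. Every CompE library lay below every DMSO library. The log2 fold change was -0.78 (SE 0.16, 95% interval -1.13 to -0.42, adjusted p = 0.0241), and with the replicate number as a block it was -0.75 (SE 0.11, adjusted p = 0.00484), both below 2-fold. The other 6 genes of the group, espin (Espn), its relative Espnl, fascin 2 (Fscn2), Xirp2, Eps8 and Eps8l2, lay between -0.21 and 0.45 with no adjusted p passing the threshold. Espn, which crosslinks and lengthens the core, had 78.4, 62.6, 59.4 and 79.2 RPM in CompE and 104, 30.6, 90.8 and 91.1 RPM in DMSO, and these overlapped.

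Of the tip link genes, the anchor gene Ush1c (chr7:46195350-46238503) separated the treatments. It had 242, 284, 323 and 226 RPM with CompE and 181, 137, 190 and 142 RPM with DMSO. The groups did not overlap. The log2 fold change was 0.69 (SE 0.16, interval 0.34 to 1.05, adjusted p = 0.0410), and 0.69 with the block (SE 0.11, adjusted p = 0.00967). Its partners stood elsewhere: Cdh23 had a log2 fold change of -0.16 (interval -1.01 to 0.69), Ush1g, which encodes the harmonin partner SANS, 0.27 (interval -0.42 to 0.96) and Pcdh15 0.25 (interval -0.06 to 0.55). Pcdh15 had 30.0, 20.1, 22.5 and 25.9 RPM in CompE and 22.8, 18.2, 17.8 and 22.0 RPM in DMSO, and the ranges overlapped.

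Of the 4 unconventional myosins, Myo6 (chr9:80165031-80311729), an actin motor that moves towards the base of stereocilia, had 945, 763, 812 and 927 RPM with CompE and 404, 391, 462 and 739 RPM with DMSO. The lowest CompE library lay just above the highest DMSO library, replicate 4. The log2 fold change was 0.74 (SE 0.20, interval 0.29 to 1.20, adjusted p = 0.0900), and 0.79 with the block (SE 0.15, adjusted p = 0.0148). Myo7a, which holds the tip link's upper anchor, had 141, 63.8, 89.9 and 104 RPM with CompE and 78.1, 59.4, 69.9 and 138 RPM with DMSO. Its groups overlapped, with a log2 fold change of 0.16 (interval -0.46 to 0.78). Myo3a and Myo3b, motors that carry espins towards the tips, had estimates of 0.05 and -0.03.

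Among the rootlet, taper and base genes, Triobp (chr15:78947724-79005869), whose product bundles the rootlet filaments, had 238, 237, 253 and 301 RPM with CompE and 165, 154, 228 and 225 RPM with DMSO. The groups did not overlap, and the log2 fold change was 0.37 (SE 0.17, adjusted p = 0.373), or 0.39 with the block (adjusted p = 0.0675). Radixin, which ties the membrane to actin near the base, had 312, 284, 297 and 330 RPM with CompE and 353, 359, 306 and 306 RPM with DMSO. These overlapped, and the interval of its log2 fold change ran from -0.39 to 0.08. The other 6 genes of the group, Clic5, Tprn, Ptprq, Elmod1, Grxcr1 and Grxcr2, lay between -0.62 and 0.28.

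In the channel complex, no gene separated by treatment. Cib2, a calcium binding subunit, had 161, 134, 148 and 153 RPM with CompE and 130, 64.2, 117 and 178 RPM with DMSO, and Lhfpl5 had 80.8, 47.8, 60.2 and 61.0 against 92.2, 23.9, 55.3 and 88.6 RPM. Both overlapped, with intervals of -0.28 to 0.78 and -0.83 to 0.66. Tmie had 24.4, 21.6, 30.4 and 29.8 RPM with CompE and 24.6, 54.4, 22.3 and 66.8 RPM with DMSO, and its estimate of -0.71 (SE 0.34, adjusted p = 0.429) rested on DMSO replicates 2 and 4. The early channel subunit Tmc2 had 3.76 to 5.09 RPM with CompE and 0.643 to 4.57 RPM with DMSO, and Tmc1 7.02 to 10.4 against 5.18 to 17.2 RPM. The ankle link, top connector and membrane genes Pdzd7, Clrn1, Strc, Loxhd1 and Atp2b2 lay between -0.19 and 0.53 with none past the threshold. Strc, a protein of the connectors between stereocilia, had 9.90, 10.2, 15.4 and 10.3 RPM with CompE and 4.99, 5.16, 14.0 and 26.6 RPM with DMSO. The plasma membrane calcium pump gene Atp2b2 had 27.9, 15, 15.4 and 11.0 against 19.4, 5.71, 21.0 and 27.6 RPM. In both, DMSO replicate 4 was the highest library of its group.

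**Figure D2:**
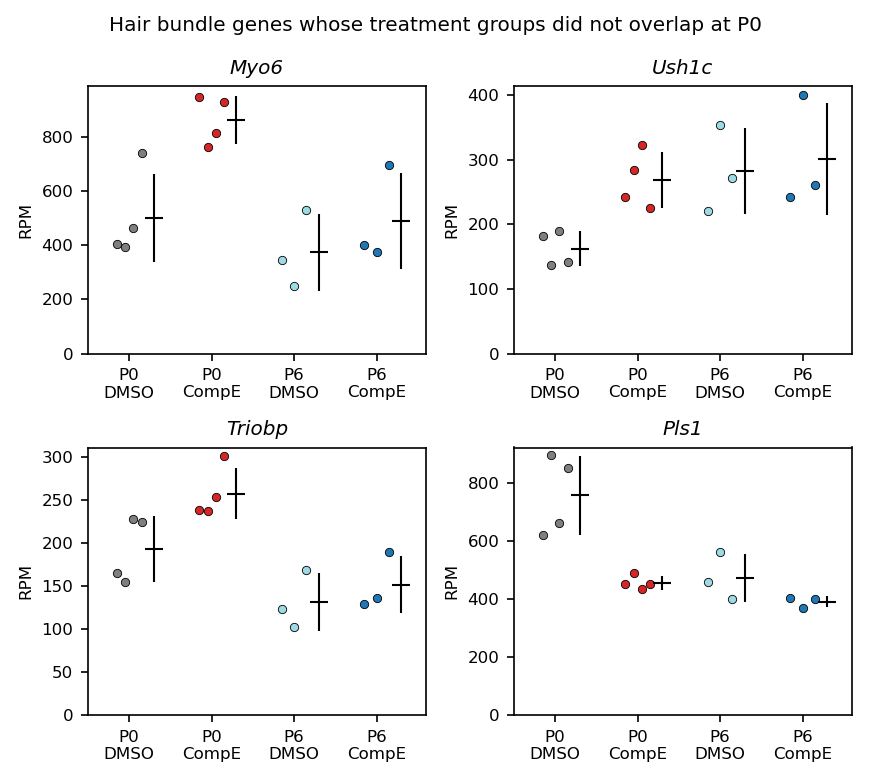
RPM in each library (points) with the mean and SD of each group (bars) for the 4 genes whose treatment groups did not overlap at P0. Myo6, Ush1c and Triobp were higher and Pls1 lower in every P0 CompE library than in every P0 DMSO library, while at P6 the treatments overlapped.

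Groups without overlap thus numbered 3 of 33 with CompE above DMSO and 1 below, where 4.88% and 4.54% of the 17365 measured genes were. By replicate pair, 8 bundle genes were higher with CompE in all 4 pairs, Clic5, Eps8, Myo6, Pcdh15, Tmc2, Tprn, Triobp and Ush1c, and 1, Pls1, was lower, beside 16.7% and 11.3% of measured genes. Eps8 was level in pair 2 when rounded (0.00). The pairs disagreed for the list as a whole. The median log2 ratio of the 33 genes was 0.43, 0.50, 0.12 and -0.47 in pairs 1 to 4, with 27, 28, 20 and 10 genes higher with CompE. The 16 HC markers had medians of 0.84, 1.0, 0.44 and -0.36 in the same pairs, the 7 glia and neuron markers 0.59, 0.76, 0.03 and -0.82, and the 8 macrophage and blood markers, which summed to no more than 18.0 RPM in a P0 library, 1.47, 2.55, -1.25 and -1.92. The part of these markers in the bundle gene ratios was not tested. Pairs 3 and 4 belong to the same batch, so the difference between them lay within a batch.

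The HC fate genes Hes6 and Atoh1 had larger estimates than any bundle gene in the same libraries, while the median of the 16 HC markers was 0.45. Hes6, a transcription factor of early HCs, had 261 ± 98.9 RPM (SD, n = 4) with CompE and 61.5 ± 31.9 RPM (SD, n = 4) with DMSO, a log2 fold change of 2.06 (SE 0.35, adjusted p = 0.010, just over the threshold), and Atoh1 had 194 ± 90.0 against 53.2 ± 33.6 RPM (SD, n = 4 each), 1.84 (SE 0.45, adjusted p = 0.0563). With the replicate block both were called, at 2.09 and 1.94, along with Pou4f3 and Srrm4, and 0 of the 33 bundle genes were, where 2.2% of all genes were. Of 27 other hair bundle genes tested, 0 were called at P0 in either fit, with a median of -0.12. Of the 13 SC markers, Fabp7 and Hey2 were called lower and the median was -0.70. With the replicate block 4 were called lower, Jag1 and Lfng in addition. Without the fold threshold and at an adjusted p of at most 0.05, Pls1 was lower and Ush1c higher (2 of 33, where 3.87% of all genes passed).

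**Figure D3:**
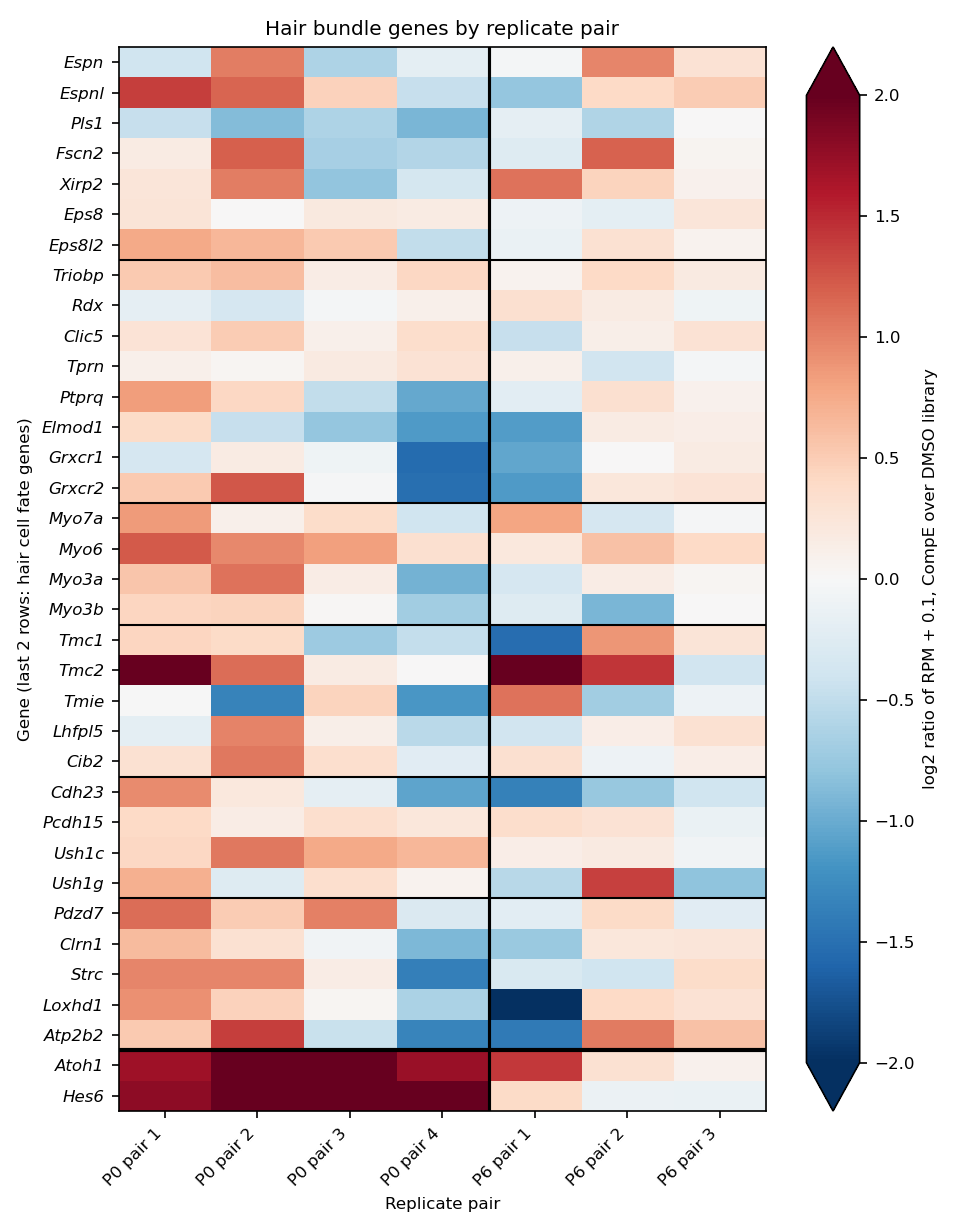
Log2 ratio of CompE over DMSO (RPM plus 0.1) in each of the 4 P0 and 3 P6 replicate pairs for the 33 bundle genes, with lines between the role groups, and for the HC fate genes Atoh1 and Hes6 in the bottom rows; the colour scale ends at 2 in either direction. Of the bundle genes, only Myo6 and Triobp were higher with CompE in all 7 pairs, as was Atoh1. The share of all measured genes higher in all 7 pairs was not computed. P0 pair 4 was low for most bundle genes although Atoh1 and Hes6 were high in it.

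At P6, again no bundle gene was called (0 of 33), and neither was any of 15322 genes tested (0%). In this fit, which has no replicate block, no bundle gene reached an unadjusted p under 0.05, where 289 genes did (1.89%). DESeq2 called 0 bundle genes and 13 genes in all (0.0545%). The smallest p-values were those of Pls1, at -0.27 (SE 0.18), Myo6 at 0.40 (SE 0.31), Espn at 0.37 (SE 0.32) and Cdh23 at -0.78 (SE 0.73), all with an adjusted p of 1.00. Only 9 of the 33 intervals lay within a 2-fold change. Myo6 had 400, 373 and 693 RPM with CompE and 345, 247 and 528 RPM with DMSO, so it was higher in each pair while the groups overlapped. Pls1 had 405, 369 and 399 against 459, 561 and 398 RPM, Ush1c 243, 401 and 261 against 221, 353 and 272 RPM, and Triobp 129, 136 and 190 against 123, 103 and 168 RPM, all overlapping. Over the 33 genes, 18 estimates lay above and 15 below 0, but 8 and 25 without CompE replicate 3 and 28 and 5 without DMSO replicate 3. With the replicate number as a block, 2 of the 33 reached an edgeR unadjusted p under 0.05, where 7.23% of all genes did. That fit called 0 genes in all. No gene of the 33 separated by treatment at P6, where 6.84% of genes did. Myo6, Triobp and Xirp2 were higher with CompE in all 3 pairs (14.8% of genes were) and Cdh23 was lower (15.7%). Tmc2 had no read in P6 DMSO replicate 1, where 0 counts allow up to 0.125 RPM, a limit that covers counting error only.

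**Figure D4:**
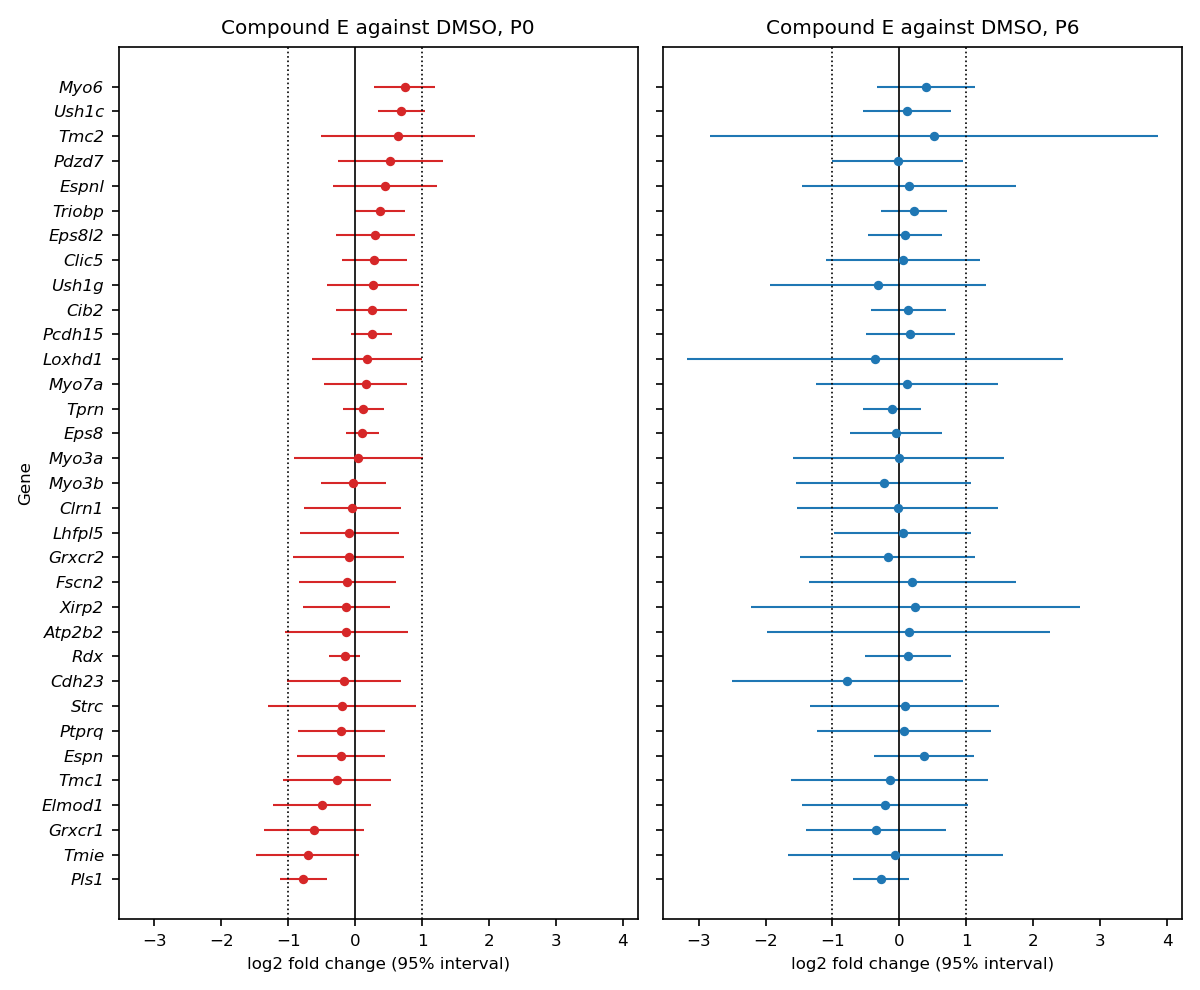
Log2 fold change of CompE against DMSO with its 95% interval for the 33 bundle genes at P0 (left) and P6 (right) on one scale, ordered by the P0 estimate; dotted lines mark a 2-fold change. The fits shown have no replicate block. At P0 the intervals of Pls1, Ush1c, Myo6 and Triobp lie to one side of 0, with Triobp at the edge, and at P6 every interval crosses 0.

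The difference between ages in the response to CompE was tested directly. Without a replicate block, no bundle gene was called (0 of 33, and 0 of 17090 genes by edgeR, 0%). None of the 33 reached an unadjusted p under 0.05 in that fit, where 811 genes did (4.75%). DESeq2 called 0 bundle genes and 33 genes in all (0.123%). The smallest p was that of Pls1, whose log2 fold change at P6 lay above that at P0 by 0.52 (SE 0.24, interval -0.01 to 1.04). Ush1c followed at -0.57 (SE 0.33, interval -1.27 to 0.13), Espn at 0.58 (SE 0.48) and Rdx at 0.29 (SE 0.28), with adjusted p-values of 1.00. The interval of the interaction lay within a 2-fold difference for 6 of the 33 genes, and for the others it reached past 2-fold. With the replicate number as a block, 2 of the 33 reached an edgeR unadjusted p under 0.05, where 9.87% of all genes did. That fit called 0 of the 33, and 7 genes higher and 9 lower among all 17090.

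Between ages, 2 of the 33 genes were called in DMSO libraries (edgeR on all 14 libraries), where 7.12% of 17090 genes were; DESeq2 called the same 2 (7.41% of all genes). Both belong to the channel complex. Age coincides with batch, so age and batch cannot be told apart. Tmc1 (chr19:20783458-20954202) was higher at P6. It had 5.18, 7.21, 17.24 and 9.86 RPM at P0 and 70.1, 17.25 and 75.5 RPM at P6. P6 replicate 2 stood level with the highest P0 library. The difference was 2.49 on the log2 scale (5.62-fold, SE 0.53, interval 1.35 to 3.63, adjusted p = 0.00470). Tmie (chr9:110865711-110880113) was lower at P6, with 24.6, 54.4, 22.3 and 66.8 RPM at P0 and 2.13, 6.70 and 13.1 RPM at P6. The groups did not overlap, and the difference was -2.46 (SE 0.57, interval -3.69 to -1.23, adjusted p = 0.00778). Tmie overlaps Als2cl on the other strand and the counting strand is not given in the sources used here. The same limit holds for others of the 33, among them Strc (Ckmt1), Cib2 (Sh2d7), Cdh23 (Vsir), Pdzd7 (Lzts2) and Ush1g (Otop2).

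These calls depended on single libraries. Over 14 fits that each left out 1 library, between 0 and 2 genes were called. The count was 0 without P0 DMSO replicate 2, P0 DMSO replicate 4 or P6 DMSO replicate 1, and 0 with DMSO libraries alone, and the estimate of Tmc1 ran from 2.21 to 2.94 and that of Tmie from -3.12 to -2.03. The call of Tmc1 was also lost without P0 DMSO replicate 1 or P6 DMSO replicate 3, and that of Tmie without P6 DMSO replicate 2 or any 1 of the P0 CompE libraries. Without both libraries of P6 pair 3, Tmc1 (2.21, adjusted p = 0.00817), Tmie (-3.12, adjusted p = 0.00294) and Myo3b (-1.58, adjusted p = 0.00379) were called. At an adjusted p of at most 0.05 without a fold threshold, Ush1c was higher (0.88, SE 0.23, adjusted p = 0.0142) and Pls1 lower (-0.61, SE 0.17, adjusted p = 0.0233) in addition (4 of 33, where 22.5% of genes passed).

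Tmc1, Ush1c, Pls1, Rdx, Myo3b and Tmie did not overlap between P0 and P6 DMSO libraries (6 of 33, where 30.9% of genes did not). The other 3 channel complex genes overlapped between ages in DMSO. Cib2 had 130, 64.2, 117 and 178 RPM at P0 and 60.9, 74.1 and 103 RPM at P6 in DMSO, and Lhfpl5 92.2, 23.9, 55.3 and 88.6 against 53.4, 23.4 and 60.4 RPM. Strc had 4.99 to 26.6 RPM at P0 and 19.1 to 57.2 RPM at P6, an estimate of 1.55 (SE 0.60, adjusted p = 0.0770). HC markers moved with age in single genes: Ocm, the outer HC calcium buffer oncomodulin, was higher at P6 (5.78, adjusted p = 0.000979) and Atoh1 lower, while the median of the 16 was -0.22. Among the other hair bundle genes, the scaffold gene Whrn (-1.53) was lower and Actg1 (2.38) and Mpp1 (1.47) were higher. Actg1, which encodes γ-actin, has near-identical copies in the genome, so its counts are uncertain.

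**Figure D5:**
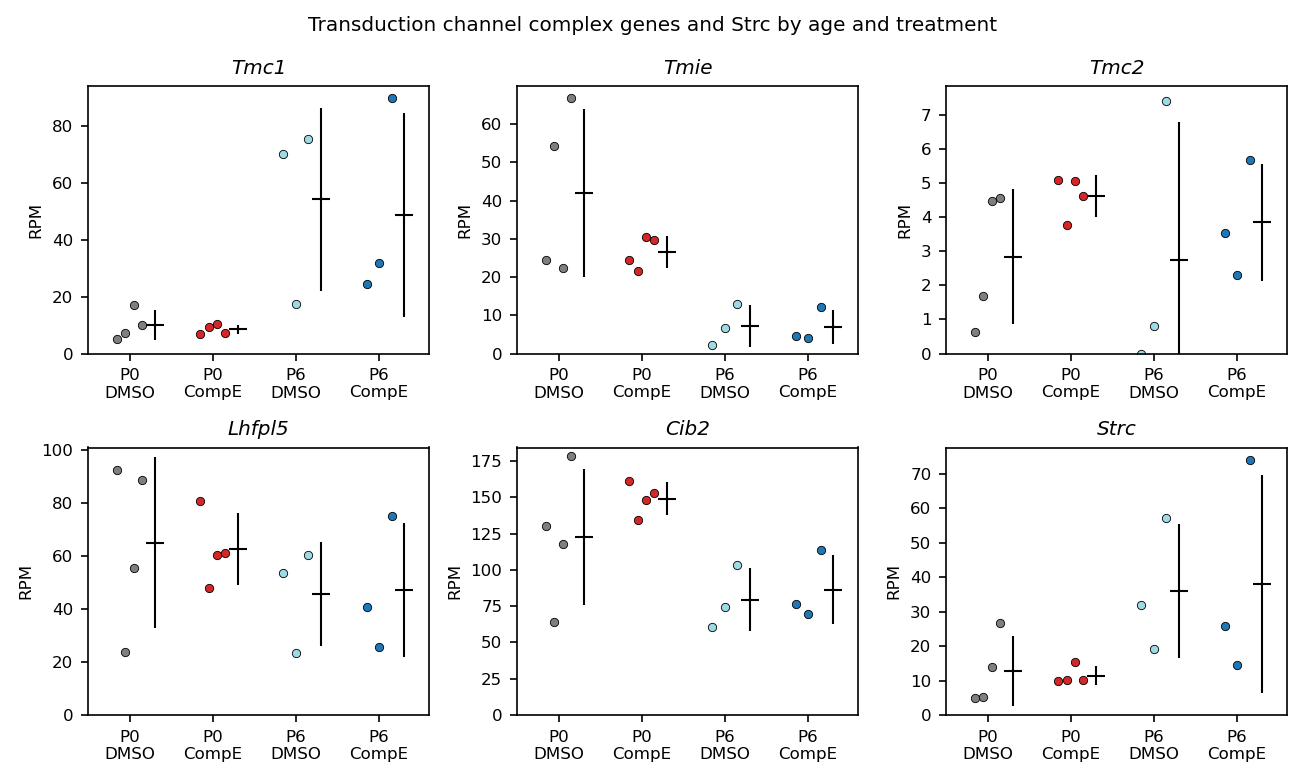
RPM in each library (points) with the mean and SD of each group (bars, cut at 0) for the 5 channel complex genes and Strc. Tmc1 was higher and Tmie lower at P6 in both treatments, while Tmc2, Lhfpl5 and Cib2 overlapped between ages in DMSO.

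The comparison between ages in CompE libraries was added after the data were seen and compares other libraries than the one in DMSO, with the spread estimated over all 14. It called Tmc1 at 2.63 (SE 0.53, adjusted p = 0.00356; 1 of 33, where 6.43% of genes were called), with 7.02, 9.43, 10.4 and 7.07 RPM at P0 and 24.3, 31.8 and 89.9 RPM at P6. Every P6 library lay above every P0 library, but the call was lost without P0 CompE replicate 1, P0 CompE replicate 4 or P6 CompE replicate 3. Tmie had 24.4, 21.6, 30.4 and 29.8 RPM at P0 and 4.61, 4.08 and 12.2 RPM at P6, without overlap, at -1.82 (SE 0.56, adjusted p = 0.0324). In all, 11 of the 33 genes did not overlap between ages, Espn and Tmc1 above and Pls1, Eps8, Triobp, Tprn, Myo6, Myo3b, Tmie, Cib2 and Pdzd7 below at P6, where 37.8% of genes did not. DESeq2 called 5 (6.89% of genes), with Tmie, Pdzd7 and Myo3b lower and Strc higher beside Tmc1. With edgeR at an adjusted p of at most 0.05 and no fold threshold there were 7, where 22% of genes passed. Without both libraries of P6 pair 3, Tmc1 was no longer called (1.90, adjusted p = 0.0187) and Tmie (-2.44, adjusted p = 0.00953) and Myo3b (-2.09, adjusted p = 0.000977) were.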

How the data were processed

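Gene-level counts of 14 SMART-Seq v4 libraries without molecular identifiers were analysed as deposited in 2 tables. Per the submitters' notes the authors trimmed reads with Trim Galore 0.6.0 and cutadapt 1.15 and aligned them with STAR 2.7.0f to mm10; the paper names another STAR version. The annotation release and strand setting are not given in the sources used here. Samples were grouped by their labels (age, treatment, replicate, batch). Compound E was compared with DMSO within each age (P0, 8 libraries; P6, 6 libraries), and the interaction and the age difference were fitted on 14 libraries, with edgeR 4.0.16 (R 4.3.3; TMM, minimum count 10, quasi-likelihood test, Benjamini-Hochberg over all genes tested, calls need 2-fold and an adjusted p not above 0.01). Intervals (95%) use the quasi-likelihood degrees of freedom. DESeq2 1.42.0, a replicate or batch block, other filters and scalings, and leaving out libraries were alternatives. Pair ratios added 0.1 RPM. RPKM used GENCODE exon lengths on GRCm38. The 33 genes and all lists were chosen with earlier results of these data known. Genes were named by a rule: values in every library for called genes and the 2 of highest RPM in each role group, statistics for called genes and otherwise the 4 of smallest p; other genes' values are ranges or were added after seeing them. Same-numbered libraries deviated together (correlations 0.145 to 0.483 at P0 and 0.243 to 0.598 at P6), so the replicate numbers were taken as pairs. Replicates differed by more than counting noise. The fits were tested on simulated counts. All columns were mapped to a sample. A result for 1 gene outside the 33 is not reported here.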

Additional observations from a re-analysis of the deposited data

Results flagged for a closer look

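In 5 of 66 groups of 4 P0 libraries, 1 library lay far from the other 3 by Dixon's ratio, where chance alone gives about 3.3. In P0 CompE replicate 1, Eps8l2 stood at 77 RPM (39.2 to 45.4 in the others), Myo3a at 24.6 RPM (10.1 to 12.2), Myo3b at 30.4 RPM (20.5 to 21.5) and Clrn1 at 32.5 RPM (12.8 to 16). The same library had the highest HC marker level of its group (2010 RPM against 857 to 1365 RPM summed over 16 markers), and the part of this in the 4 values was not tested. Strc stood at 15.4 RPM in P0 CompE replicate 3 (9.90 to 10.3 RPM in the others).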

How the results depend on the processing

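The log2 fold changes given with their statistics kept their direction for Pls1, Ush1c, Myo6 and Triobp at P0 and for Tmc1 and Tmie between ages; over all 33 genes the number above 0 went from 16 to between 12 and 25 at P0, and from 18 to between 8 and 28 at P6, when 1 library was left out. The number called with compound E at P0, at P6 and in the interaction stayed at 0 under every alternative with the same thresholds, including the replicate block, the batch block, DESeq2 and each left-out library (0 to 0). With an adjusted p of at most 0.05 and no fold threshold, 2 genes were called at P0, 4 between ages in DMSO and 7 between ages in compound E; fewer conditions apply there by construction. Between ages in DMSO the count was 2, and 0 with DMSO libraries only, where fewer libraries were fitted; leaving out 1 library gave 0 to 2. Between ages in compound E the count was 1, 5 with DESeq2, 2 without P6 pair 3 and 0 to 1 with 1 library left out; the cause was not tested. The replicate block raised the number of all genes called at P0 from 195 to 350 and called none of the 33. It was not fitted between ages, since same-numbered libraries at P0 and P6 come from different batches. At P6, 9 of the 33 intervals lay within 2-fold, and the biological coefficient of variation was 46.7%, or 30.6% with the replicate block.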
